A study of Drosophila melanogaster with 12 samples.

Results

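The genes considered here encode RNA Polymerase II (Pol II) itself and the complexes that load it, control it and cut its transcripts: TFIID, Mediator and Integrator. They were taken from the fly annotation by symbol alone, as protein-coding genes whose symbols start with Polr2, with MED and a number, with Taf and a number or with IntS and a number. This gave 64 of 13968 protein-coding genes, namely 13 Pol II, 25 Mediator, 15 TFIID and 11 Integrator genes. The measurement was the percentage of each gene body, between annotated start and end, that lay inside regions called for serine 2 phosphorylated Pol II (Pol II S2), referred to below as coverage.

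The regions came from Pol II S2 ChIP-seq (antibody Ab5095) in Kc167 cells, a female Drosophila line grown out of embryos and of hemocyte origin. AGO2 KD cells had received siRNA against Argonaute2 (siAGO2), LaminB KD cells had received dsRNA against LaminB (dsLaminB), and mock cells went through the same nucleofection with no RNA, each 3 days before collection. AGO2 KD was compared with mock to ask whether AGO2 affects Pol II on chromatin, and LaminB KD was the control for specificity. Each group had 2 IP libraries, called 1 and 2 here, and the labels do not say whether they came from separate cultures. The reagent, siRNA or dsRNA, differed together with the target and cannot be told apart from it.

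Pol II transcribes all protein-coding genes, and the C-terminal domain of its largest subunit, Polr2A, carries the serine 2 mark while the enzyme elongates. TFIID, built from the TATA-binding protein and the TAFs, recognises core promoters, and Mediator passes signals from activators to Pol II there. Integrator holds an RNA endonuclease and a phosphatase module, processes small nuclear RNAs and terminates promoter-proximal Pol II on many protein-coding genes in flies. Most of these are housekeeping genes. In Drosophila many such genes start from promoters with a DRE or Motif 1 element and lie head to head with a neighbour.

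The starts of 5 of these genes are shown. Polr2A encodes the subunit that carries the mark, MED18 and MED30 lost their regions upon AGO2 depletion, Taf10 shares its region with a paralog, and Polr2C kept a covered start in every library. Each run covers 100 bases before and 20 bases after the gene start on the gene's strand, from the RefSeq release 6 genome (dm6). Capitals mark the DRE core TATCGAT, the Motif 1 core GTCACAC or the E-box CAGCTG on either strand.
Polr2A (chrX:11570307-11570426, minus strand): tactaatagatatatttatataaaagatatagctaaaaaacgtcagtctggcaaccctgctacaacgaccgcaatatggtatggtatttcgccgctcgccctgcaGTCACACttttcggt
Polr2C (chr2L:13833237-13833356, plus strand): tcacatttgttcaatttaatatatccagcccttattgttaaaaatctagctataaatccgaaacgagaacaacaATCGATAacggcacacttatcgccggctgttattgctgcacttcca
MED18 (chrX:1865809-1865928, plus strand): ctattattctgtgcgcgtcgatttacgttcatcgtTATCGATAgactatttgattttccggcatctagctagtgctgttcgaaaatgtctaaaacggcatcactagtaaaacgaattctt
MED30 (chr3L:654070-654189, minus strand): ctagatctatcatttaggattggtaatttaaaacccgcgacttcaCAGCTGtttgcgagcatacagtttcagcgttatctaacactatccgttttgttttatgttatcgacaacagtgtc
Taf10 (chr2L:2767790-2767909, plus strand): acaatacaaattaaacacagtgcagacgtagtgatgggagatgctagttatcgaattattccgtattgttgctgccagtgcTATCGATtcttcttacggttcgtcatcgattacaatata

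All 64 genes had the same start and end in RefSeq as in the annotation used. In the window from 250 bases before to 50 bases after the gene start, on either strand, the Motif 1 core was present at 18 of the 64 genes (28.1%), against 9.47% of all promoters and 15.5% of those whose gene had a region in both mock lists. Its position was also shared. The core started within the first 20 bases of the gene, on the gene's strand, in 14 of the 64 genes, among them Polr2A, Polr2G, Polr2I, Polr2L, Taf1, Taf4, Taf5 and IntS1. The same held for 2.08% of all genes and 3.79% of genes with a region in both mock lists, and this window was chosen after the positions were seen. The DRE core was found at 19 of the 64 (29.7%), against 18.2% of all promoters and 29% of those with a mock region in both lists. For the E-box the shares were 14.1% and 17.6%, for the TATA box letters TATAAA 56.2% and 45.8%, and for the initiator letters TCAGT 34.4% and 51.5%, of the 64 genes and of all promoters. These are matches of letters, not sites shown to be bound. A gene start on the opposite strand lay within 1 kb upstream of 45 of the 64 genes (70.3%), against 33.3% of all protein-coding genes and 48.8% of genes with a region in both mock lists.

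Mock cells carried S2 regions on nearly all of these genes. A region touched 61 and 62 of the 64 bodies in mock 1 and 2, and 60 in both. Median coverage was 86.1% and 88.6% in the mock libraries, while the mean over all protein-coding genes was 27.6% in each. For comparison, the mean over the 64 genes was 68.5% and 71.2%. The genes are short, with a median length of 1441.5 bp (from 488 to 10463 bp), against 2164.5 bp for all protein-coding genes. The 34 genes under 2 kb had a median coverage of 100% in both mock libraries, and the 30 genes of 2 kb or more had 42.0% and 54.0%. The rank correlation of length with coverage over the 64 genes was −0.53 in mock 1 and −0.56 in mock 2, a description over genes that share a library. Mock 1 and 2 covered 24 and 23 of the genes over their whole length. The label of the culture was checked on 8 hemocyte genes, of which srp, Hml, Pxn and ush had a region in mock and He, NimC1, eater and Sr-CI were at 0. Of 8 genes of neurons, muscle, germline and fat body, elav, Mef2 and vas had a mock region and the other 5 were at 0.

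The files used here hold called regions without read counts. Depth is therefore unknown from them for every library, no counting interval can be given, and a call is easier in a deeper library. At a deposited fold enrichment of 3.0 to 3.5 the median −log10 p was 4.11 and 6.49 in AGO2 KD, 9.87 and 11.6 in LaminB KD, against 14.7 and 14.5 in mock. The lists held 4122 and 6534 regions in AGO2 KD, 7309 and 7122 in LaminB KD, against 7795 and 7957 in mock. This proxy of depth moved with the groups, and AGO2 KD 1 stood apart from every other list. The part of depth in the results was not tested. In this bulk assay, fewer cells with Pol II S2 on a gene and less of it per cell cannot be told apart. The body of the AGO2 gene itself was covered at 4.39% and 18.4% in AGO2 KD, 59.4% and 58.2% in LaminB KD, against 55.7% and 33.2% in mock. The body of Lam, which encodes LaminB, was covered at 24.6% and 77.6% in AGO2 KD, 82.3% and 79.4% in LaminB KD, against 85.5% and 83.1% in mock. RNA interference acts on transcripts, so S2 regions on these bodies do not check the depletion.

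Upon depletion of AGO2, S2 regions on this machinery were fewer and shorter than in mock. A region touched 32 and 57 of the 64 bodies in AGO2 KD 1 and 2, against 61 and 62 in mock. Over all protein-coding genes the counts were 4413 and 6310, against 7390 and 7324 in mock, so they were lower there too. Median coverage of the 64 genes was 1.40% and 37.3% in AGO2 KD, against 86.1% and 88.6% in mock. The AGO2 KD libraries thus differed greatly from each other, while both lay below mock. The median over genes of the difference in mean coverage was −40.4 percentage points, with quartiles over the genes of −58.6 and −19.1, and the pooled SD of the library medians was 18.0 points. Mean coverage was lower in AGO2 KD in 62 of the 64 genes and higher in 1, MED31. Of all protein-coding genes, 7224 were lower in AGO2 KD, 96 higher and 6648 equal. Over all protein-coding genes, of which 7611 had a region in any library, the median difference was −0.27 points. Among genes with a region in both mock lists it was −43.9 points for 60 of the 64. For 7174 such genes of the whole annotation it was −24.3 points. A fall cannot exceed the coverage in mock, whose mean was 68.5% and 71.2% over the 64 genes and 27.6% over all genes. Starting coverage was not matched, so these medians do not show whether the machinery fell more than other genes.

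A gene was called lower when both AGO2 KD libraries lay at least 25 percentage points below both mock libraries. This held for 21 of the 64 genes and no gene was called higher, against a background of 14.4% called lower and 0% called higher among all protein-coding genes. Only a gene with at least 25% coverage in both mock libraries could be called. Among such genes the call was made in 21 of 53 (39.6%), against 44.0% of 4564 in the whole annotation, so the share in the machinery was near, and slightly below, the background. The groups did not overlap, with AGO2 KD below, in 48 of the 64 genes (background 41.5%). Only a gene with a region in both mock lists can lie below, and among such genes the share was 80% (48 of 60), against 80.9% of 7174 in the whole annotation, so it was at the background. AGO2 KD lay above mock without overlap in 0 (background 0.0286%). A region was lost, present in both mock libraries and in neither AGO2 KD library, in 3 genes (background 6.39%), MED16, MED18 and MED30, which is 5% of the 60 that could be lost, against 12.4% of all genes with a region in both mock lists. With 2 against 2 libraries the exact two-sided permutation test of a single gene cannot go below p = 0.333, so no gene passes a threshold of 0.05.

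The calls depended on how many regions each list held. With every list trimmed to its 4122 top-scoring regions, the number in AGO2 KD 1, 18 of the 64 genes were called lower (background 10.1%). Of these 18, 12 were among the 21. In the whole annotation 2 genes were called higher, 1 of them among the 64. The trim left AGO2 KD 1 whole and cut the other lists, so a call could be lost because mock regions were cut. The call was lost at Polr2B, Polr2D, Polr2H, Taf4, MED18, MED21, MED30, IntS8 and IntS10, and was gained at Polr2A, Polr2G, Taf9, Taf10b, Taf12 and Taf13. MED7 was then called higher, as the trim had cut mock regions there. With full lists MED7 was at 28.2% and 88.9% in AGO2 KD, against 78.1% and 86.7% in mock. Without AGO2 KD 1, MED31 was 49.2 points higher in AGO2 KD than in mock, which rests on AGO2 KD 2 alone.

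**Figure D1:**
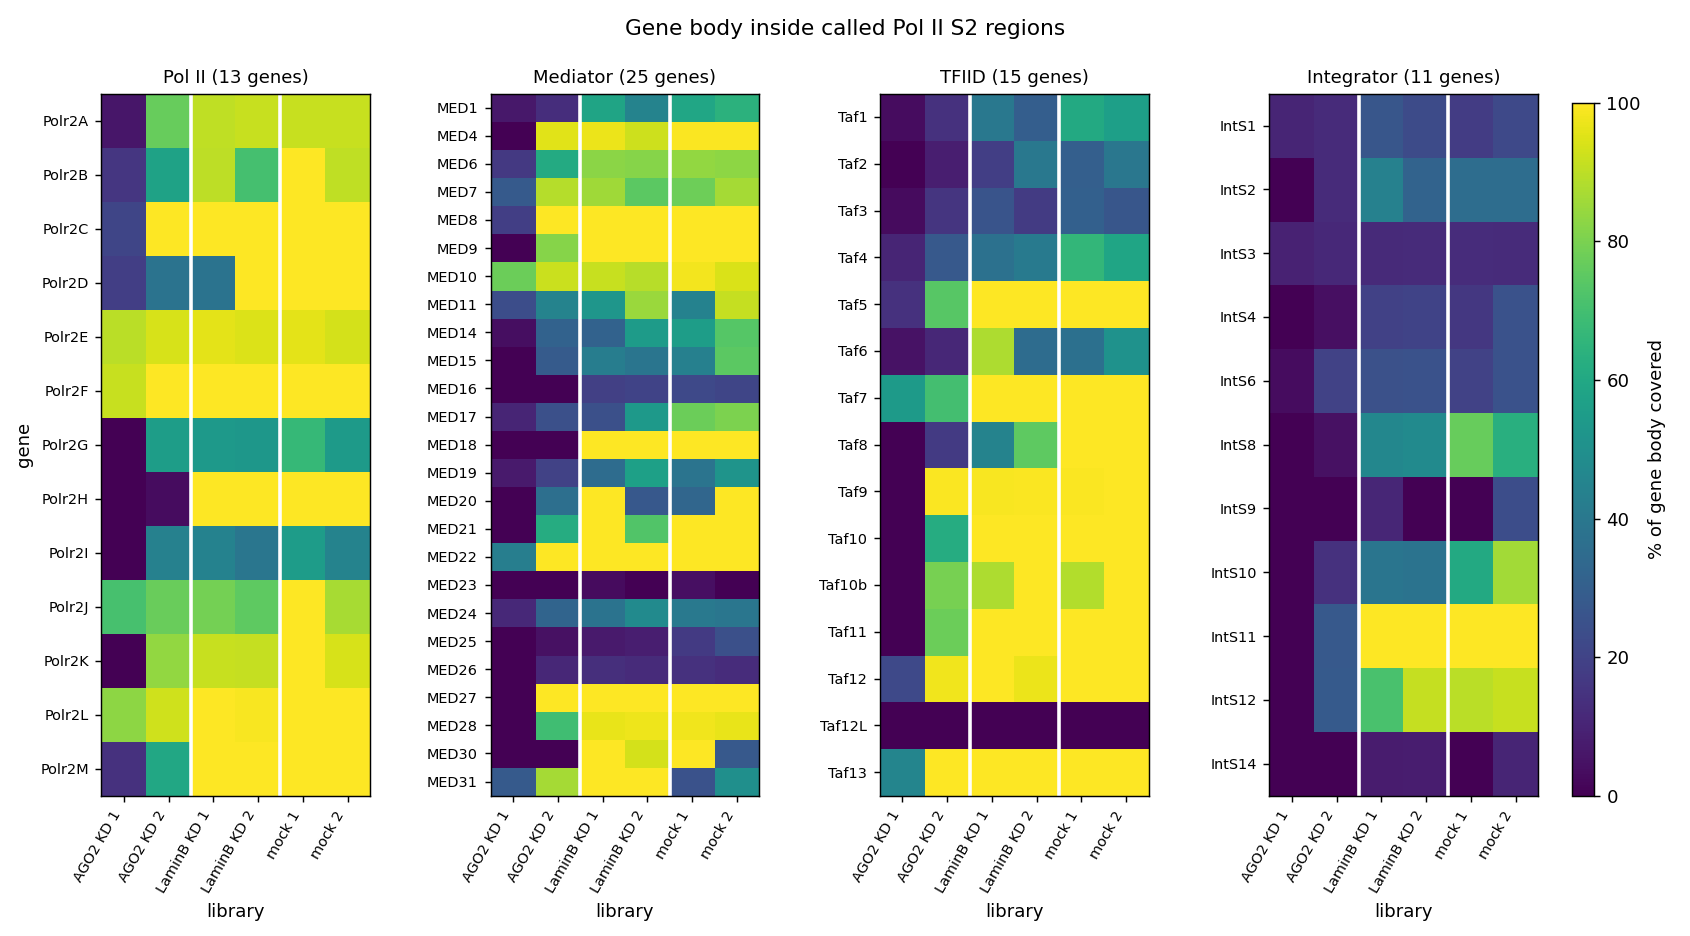
Heat map of coverage, as the percentage of each gene body inside called Pol II S2 regions (colour, 0 to 100%), for 64 genes (rows, by complex) in 6 libraries (columns, AGO2 KD, LaminB KD and mock). AGO2 KD 1 is dark for most genes, with a median of 1.40%, AGO2 KD 2 is intermediate at 37.3%, and the LaminB KD and mock columns look alike except at single genes such as MED31 and Taf8.

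The Pol II subunits kept most of their regions in AGO2 KD 2 and lost much of their extent in AGO2 KD 1. Median coverage over the 13 genes was 16.0% and 76.8% in AGO2 KD, 91.5% and 94.8% in LaminB KD, against 100% and 93.8% in mock. All 13 had a region in AGO2 KD 2, in both LaminB KD libraries and in both mock libraries, and 9 had one in AGO2 KD 1. Polr2B, Polr2D, Polr2H and Polr2M were called lower, 4 of the 13, of which Polr2M alone kept the call with equal numbers of regions.

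Polr2A (FBgn0003277, X:11562800-11570326 in dm6) encodes the largest subunit, with the C-terminal domain that the antibody reads. Its coverage was 6.04% and 76.8% in AGO2 KD, 90.5% and 91.8% in LaminB KD, against 91.5% and 91.6% in mock, a difference of −50.1 points between AGO2 KD and mock with a pooled SD of 35.4 (exact permutation test, two-sided p = 0.333). In mock, 1 region ran from about 2.1 kb upstream of the gene start, over the head-to-head neighbour CG11699, to 6884 and 6891 bp inside the gene. In AGO2 KD 2 this stretch was split into a region of 3967 bp over the start and another of 2679 bp further in, and in AGO2 KD 1 only a region of 952 bp over the start remained. The promoter window of Polr2A was fully covered in all 6 libraries and the difference lay in the body. No library had a region in the last 500 bp of the gene.

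Polr2B, the second-largest subunit, forms the catalytic centre together with Polr2A. It was covered at 16.0% and 57.8% in AGO2 KD, 89.9% and 70.4% in LaminB KD, against 100% and 90.5% in mock, a difference of −58.4 points between AGO2 KD and mock with a pooled SD of 21.4. With equal numbers of regions the direction turned, to 8.00 points higher in AGO2 KD, as the trim had cut mock regions there. In AGO2 KD 1 a region of 691 bp near the start was left, whereas in mock 1 a region of 4775 bp took in the whole gene. Polr2C, which pairs with Polr2J to nucleate assembly, was at 20.8% and 100% in AGO2 KD and at 100% in every LaminB KD and mock library, so AGO2 KD 2 overlapped mock. Polr2J stood at 70.9% and 77.2% in AGO2 KD, 79.3% and 75.0% in LaminB KD, against 100% and 86.7% in mock.

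Polr2D and Polr2G form the stalk of the enzyme. Polr2D was covered at 18.4% and 38.1% in AGO2 KD, at 38.1% and 100% in LaminB KD, against 100% in both mock libraries. Its body overlaps Ada2a, so its regions cannot be assigned to one of these genes. With equal numbers of regions it was 21.9 points higher in AGO2 KD than in mock, as the trim had cut mock regions there. Polr2G was at 0% and 55.5% in AGO2 KD, 53.5% and 52.8% in LaminB KD, against 67.0% and 54.3% in mock, where AGO2 KD 2 lay between the mock libraries.

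The subunits shared by all nuclear RNA polymerases covered the whole range of outcomes. Polr2E hardly differed, at 89.5% and 94.0% in AGO2 KD, 95.9% and 94.8% in LaminB KD, against 95.8% and 93.4% in mock. Polr2F was at 91.7% and 100% in AGO2 KD and at 100% elsewhere, and Polr2L at 83.2% and 92.8% in AGO2 KD, 100% and 99.2% in LaminB KD, against 100% in both mock libraries. Polr2F and Polr2L are short genes, of 603 and 488 bp, and their regions ran past them. The region on Polr2F began upstream of the start in every library, whereas that on Polr2L began 82 and 35 bp inside the gene in AGO2 KD and ran on over CG13630. Polr2K was at 0% and 83.7% in AGO2 KD, 91.5% and 91.3% in LaminB KD, against 100% and 93.8% in mock.

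Polr2H, another shared subunit, differed most in the family. It was at 0% and 3.15% in AGO2 KD and at 100% in both LaminB KD and both mock libraries, a difference of −98.4 points with a pooled SD of 1.57 (exact permutation test, two-sided p = 0.333). With equal numbers of regions the difference was 0, because the trim cut the mock regions and left Polr2H uncovered in AGO2 KD and mock. The only AGO2 KD region, in library 2, lay over the neighbour CG11247, which starts 126 bp away on the opposite strand, and reached 23 bp past the start of Polr2H. In mock 1 and 2 a region of 2638 and 2800 bp spanned both genes and CG14570. Polr2I, which in yeast contributes to the fidelity of the enzyme, was at 0% and 43.9% in AGO2 KD, 44.5% and 39.4% in LaminB KD, against 55.4% and 44.6% in mock. Polr2M, whose human counterpart Gdown1 is a Pol II-associated factor rather than a core subunit, was at 14.2% and 60.1% in AGO2 KD and at 100% in all 4 other libraries.

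**Figure D2:**
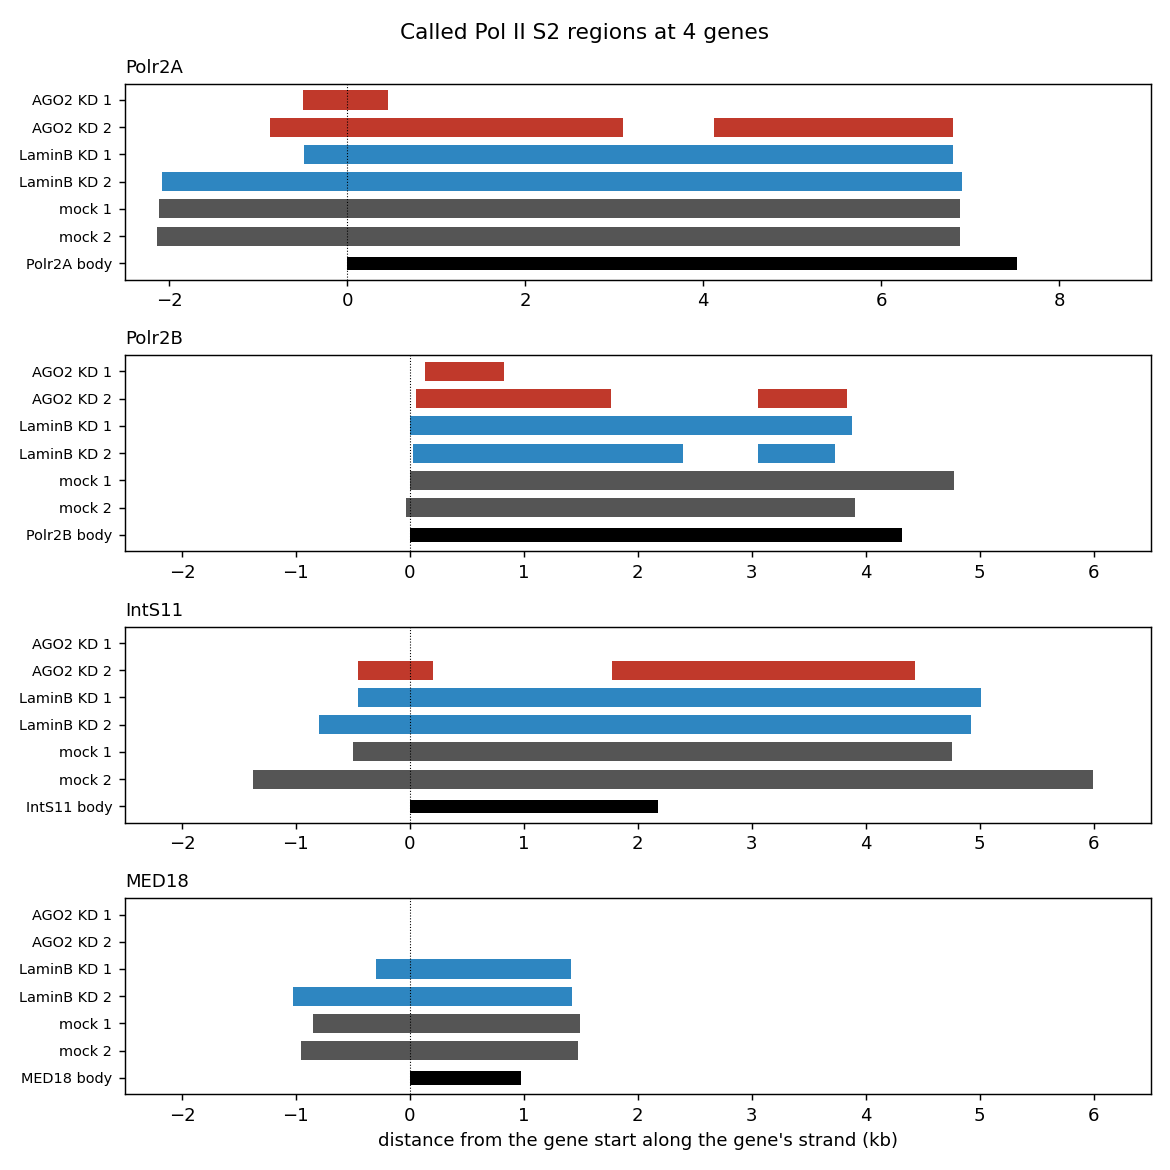
Called Pol II S2 regions (bars) at Polr2A, Polr2B, IntS11 and MED18, drawn by distance from the gene start in kb along the gene's strand, 1 row per library, with the gene body in black below. Regions of LaminB KD and mock span most or all of each body, those of AGO2 KD 2 are split or absent, and AGO2 KD 1 has a region only at the starts of Polr2A and Polr2B.

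In the TFIID genes, too, AGO2 KD was the lowest group. Median coverage over the 15 genes was 2.81% and 62.1% in AGO2 KD, 87.7% and 96.9% in LaminB KD, against 99.5% and 100% in mock. The call of lower coverage upon AGO2 depletion was made for 7 of the 15, Taf1, Taf4, Taf5, Taf6, Taf7, Taf8 and Taf10, and for 7 of the 14 with at least 25% in both mock libraries, against 44.0% of all such genes. AGO2 KD lay below mock without overlap in 13 of the 14 TFIID genes with a region in both mock lists, against 80.9% of all such genes.

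Taf8, a histone-fold subunit that joins Taf2 and Taf10 to the complex, showed the largest difference. It was covered at 0% and 16.9% in AGO2 KD, 44.6% and 75.3% in LaminB KD, against 100% in both mock libraries, −91.5 points between AGO2 KD and mock with a pooled SD of 8.46 and −40.0 points between LaminB KD and mock with a pooled SD of 15.4. Here each knockdown was below mock, and AGO2 KD was the lower of them. Taf10 (FBgn0028398, 2L:2767890-2768612) was at 0% and 62.1% in AGO2 KD and at 100% in the 4 other libraries. It starts 45 bp from its paralog Taf10b on the opposite strand, and both genes lay under 1 region in each library that had one. Taf10b was at 0% and 79.6% in AGO2 KD, 87.7% and 100% in LaminB KD, against 88.4% and 100% in mock.

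Taf1 and Taf4 are long genes, of 9160 and 8440 bp, that encode large structural subunits. Taf1 was covered at 3.37% and 14.2% in AGO2 KD, 40.1% and 29.9% in LaminB KD, against 60.6% and 56.3% in mock. Taf4 was at 10.5% and 27.9% in AGO2 KD, 37.2% and 41.4% in LaminB KD, against 66.1% and 59.0% in mock. In both genes the 3 groups lay in the same order without overlap, with LaminB KD between AGO2 KD and mock.

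Taf6, which pairs with Taf9 through a histone fold, was at 4.97% and 11.1% in AGO2 KD, 87.7% and 35.4% in LaminB KD, against 36.9% and 51.0% in mock, so that LaminB KD spanned both mock values. Taf9 was at 0% and 99.3% in AGO2 KD, 98.9% and 99.2% in LaminB KD, against 99.5% and 100% in mock. Its difference of −50.1 points therefore rested on AGO2 KD 1 alone. Taf11, a histone-fold partner of Taf13, was at 0% and 77.6% in AGO2 KD and at 100% elsewhere, and Taf13 was at 45.5% and 100% in AGO2 KD and at 100% elsewhere.

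Taf7, which in mammals binds TAF1 and restrains it, had the highest mean coverage in AGO2 KD among the TFIID genes called lower, with 54.5% and 70.0% in AGO2 KD and 100% in the LaminB KD and mock libraries. Taf3, on chromosome 4, had low coverage in every group, 2.81% and 15.4% in AGO2 KD, 25.8% and 17.5% in LaminB KD, against 30.8% and 26.8% in mock. Of the other TFIID genes, Taf5, a scaffold subunit with WD40 repeats, was at 14.4% and 74.2% in AGO2 KD, 99.8% and 99.6% in LaminB KD, against 100% in both mock libraries. Taf12, the histone-fold partner of Taf4, was at 22.1% and 97.9% in AGO2 KD, so that AGO2 KD 2 came near the 4 other libraries, which were between 96.9% and 100%. Taf2, which contacts promoter DNA, was at 0% and 8.52% in AGO2 KD, 18.5% and 39.9% in LaminB KD, against 30.2% and 39.6% in mock. Taf12L, a paralog of Taf12 also known as the testis TAF rye, was the only one of the 64 genes at 0% in all 6 libraries. Among 4 further TAF paralogs known for their role in the testis, nht, can and sa were also at 0 throughout, while mia had between 9.89% and 21.0% in every library but AGO2 KD 1, where it was at 0.

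The 3 genes that lost their regions in AGO2 KD compared with mock were all in Mediator. They were 12.5% of the 24 Mediator genes with a region in both mock lists, against 12.4% of all such genes. Median coverage over the 25 genes was 0% and 36.4% in AGO2 KD, 85.6% and 74.6% in LaminB KD, against 77.7% and 83.0% in mock. The call of lower coverage upon AGO2 depletion was made for 6, MED1, MED17, MED18, MED21, MED28 and MED30, of 21 with enough coverage in mock, against 44.0% of all such genes. AGO2 KD lay below mock without overlap in 17 of the 24 Mediator genes with a region in both mock lists (70.8%), against 80.9% of all such genes.

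MED18 (FBgn0026873, X:1865909-1866887), of the head module that contacts Pol II, was at 0% in both AGO2 KD libraries. It was at 100% in both LaminB KD and both mock libraries, the largest possible difference of 100 points in size. With equal numbers of regions the difference from mock was 0, because the trim cut the mock regions and left MED18 uncovered in AGO2 KD and mock. Its promoter window, which holds the DRE core shown above 65 bases before the start, followed the body, at 0% in both AGO2 KD libraries and 100% in the rest. The mock regions of 2350 and 2432 bp covered the head-to-head neighbour Gcna, 74 bp away, as well as MED18 and Pex5. Their deposited fold enrichments of 2.12 and 2.20 placed them at ranks 5663 and 5492 by fold in lists of 7795 and 7957, so these regions were among the weaker ones.

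MED30, also of the head module, was at 0% in both AGO2 KD libraries, 100% and 93.5% in LaminB KD, against 100% and 27.9% in mock. The mock replicates disagreed here, since mock 1 had a region of 6175 bp over 4 genes and mock 2 a region of 308 bp inside MED30. MED16, of the tail module that receives activators, was at 0% in both AGO2 KD libraries, 18.9% and 20.0% in LaminB KD, against 22.2% and 20.8% in mock. Its regions sat at the gene's 2 ends and were shared with CG11170, CG11275 and Vps35, so the loss of MED16 is a loss at its borders.

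MED17, the central subunit of the head, was at 10.4% and 24.3% in AGO2 KD, 24.3% and 53.6% in LaminB KD, against 77.7% and 80.1% in mock. AGO2 KD differed from mock by −61.5 points with a pooled SD of 7.08 and LaminB KD by −39.9 points with a pooled SD of 14.7. A region over the start was present in every library and extended 533 bp into the gene in AGO2 KD 2 and 1756 bp in mock 2. MED21, of the middle module, was at 0% and 62.0% in AGO2 KD, 100% and 72.8% in LaminB KD, against 100% in both mock libraries.

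MED31, another subunit of the middle module, was the exception in both comparisons with mock. It was at 28.2% and 86.7% in AGO2 KD, 100% in both LaminB KD libraries and 25.1% and 49.9% in mock. LaminB KD was called higher than mock, by 62.5 points with a pooled SD of 12.4, and AGO2 KD overlapped mock with a difference of 19.9 points and a pooled SD of 31.8. Single regions of 3252 and 3223 bp ran through CG9775, MED31 and slx1 in LaminB KD, whereas the mock 1 region ended 333 bp into MED31 and mock 2 had 2 separate regions, of 1142 and 1538 bp, with a gap inside the gene.

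At MED27, a subunit near the tail, and MED4, of the middle module, the difference between AGO2 KD and mock came from AGO2 KD 1. MED27 was at 0% and 100% in AGO2 KD and at 100% elsewhere, and MED4 was at 0% and 95.7% in AGO2 KD, 96.9% and 92.2% in LaminB KD, against 99.4% in both mock libraries. With Taf9 these had the widest gaps between the AGO2 KD replicates. MED14, the scaffold of the complex, was at 3.54% and 31.4% in AGO2 KD, 31.6% and 54.7% in LaminB KD, against 55.5% and 73.8% in mock. MED15, a tail subunit bound by activators, was at 0% and 28.7% in AGO2 KD, 42.6% and 38.9% in LaminB KD, against 43.5% and 74.7% in mock. In both genes AGO2 KD lay below mock in each library, but by less than 25 points in the closest pair.

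MED26, on chromosome 4, is the longest of the 64 genes at 10463 bp and in mammals brings elongation factors to Pol II. Its coverage was 0% and 11.2% in AGO2 KD, 13.3% and 12.3% in LaminB KD, against 14.3% and 12.8% in mock. Apart from 1 small region in mock 1, each library but AGO2 KD 1 had a single region there. It lay inside the gene, 1.3 to 2.8 kb from the annotated gene start. MED26 has 2 annotated transcript starts, and whether this region lay at the other was not tested.

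Of the Mediator genes not yet given, MED1 and MED28 were called lower in AGO2 KD. MED1, a long gene whose mammalian counterpart is bound by nuclear receptors, averaged 9.71% ± 4.59 in AGO2 KD, 51.5% ± 9.78 in LaminB KD, against 61.8% ± 3.50 in mock (SD, n = 2 each). MED28 was at 0% and 69.2% in AGO2 KD, 96.6% and 97.6% in LaminB KD, against 98.0% and 96.6% in mock. MED10, of the middle module, was the Mediator gene best covered in AGO2 KD 1, at 77.7%, with 92.1% in AGO2 KD 2, 91.6% and 89.2% in LaminB KD, against 98.1% and 94.5% in mock.

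The head module genes MED8 and MED22 and the middle module gene MED9 were at 100% in all LaminB KD and mock libraries. In AGO2 KD they differed from each other, with 18.5% and 100% for MED8, 42.8% and 100% for MED22 and 0% and 81.7% for MED9. MED6, a conserved head subunit, was at 16.6% and 61.3% in AGO2 KD, 82.8% and 81.9% in LaminB KD, against 83.8% and 83.0% in mock. Its body overlaps CG8478 and Naa80. MED20, which pairs with MED18 in the head, had replicates that disagreed in every group, at 0% and 36.4% in AGO2 KD, 100% and 27.6% in LaminB KD, against 33.0% and 100% in mock. The tail gene MED23 was the most sparsely covered after Taf12L, at 0% in both AGO2 KD libraries, 2.84% and 0% in LaminB KD, against 4.24% and 0% in mock.

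The remaining 5 Mediator genes, MED7, MED11, MED19, MED24 and MED25, had between 0% and 28.2% in AGO2 KD 1 and between 4.41% and 88.9% in AGO2 KD 2. The lowest of them was MED25, at 0% and 4.41% in AGO2 KD, 7.30% and 8.24% in LaminB KD, against 16.9% and 24.6% in mock, where both knockdowns lay under mock. MED7 and MED11 overlapped mock in AGO2 KD, and MED19 and MED24 did not.

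Integrator genes had the lowest median coverage in every library, shared with Mediator at 0% in AGO2 KD 1. Median coverage over the 11 genes was 0% and 12.3% in AGO2 KD, 26.9% and 25.3% in LaminB KD, against 19.7% and 25.1% in mock. They are also the longest, with a median of 3543 bp. The call of lower coverage was made for 4, IntS8, IntS10, IntS11 and IntS12, which were 4 of the 5 that had at least 25% in both mock libraries, against 44.0% of all such genes. With equal numbers of regions IntS8 and IntS10 lost the call. A region was found on 3 of the 11 in AGO2 KD 1 and on 9 in AGO2 KD 2.

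IntS11 (FBgn0039691, 3R:29745337-29747513), the RNA endonuclease of the complex, was at 0% and 28.1% in AGO2 KD and at 100% in the LaminB KD and mock libraries, −85.9 points with a pooled SD of 14.1 (exact permutation test, two-sided p = 0.333). In AGO2 KD 2 a region of 663 bp at the start, shared with Wdr24, and another of 2657 bp, which began 1773 bp into the gene and ran on over ATPsyngamma and yata, were all that was left of the single mock regions of 5263 and 7369 bp. IntS12, a small PHD finger subunit, was at 0% and 28.2% in AGO2 KD, 71.5% and 91.3% in LaminB KD, against 89.6% and 91.6% in mock. Its only AGO2 KD region covered the 3′ part of the gene and continued over ball, His2Av and SPARC.

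IntS10 and IntS8 also stood below mock. IntS10 was at 0% and 14.4% in AGO2 KD, 38.8% and 37.9% in LaminB KD, against 60.6% and 86.3% in mock. IntS8, a subunit of the phosphatase module, was at 0% and 4.47% in AGO2 KD, 46.3% and 47.7% in LaminB KD, against 76.8% and 63.0% in mock, where the 3′ part of its coverage overlapped Fen1. In both genes LaminB KD lay between AGO2 KD and mock without overlap.

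The remaining Integrator genes had regions over less of the body, or none. IntS1, the largest subunit, was at 10.4% and 12.3% in AGO2 KD, 26.9% and 23.0% in LaminB KD, against 18.0% and 21.9% in mock, so AGO2 KD lay below mock and LaminB KD above it. One of its regions in every library crossed the 3′ end and belonged also to the neighbour tsr. IntS3 was nearly level, at 9.43% and 11.4% in AGO2 KD, 11.9% and 12.4% in LaminB KD, against 12.6% and 12.4% in mock. IntS6, of the phosphatase module, was at 3.42% and 19.6% in AGO2 KD, 25.0% and 25.3% in LaminB KD, against 19.7% and 25.1% in mock. IntS2 was at 0% and 12.3% in AGO2 KD, 43.8% and 31.7% in LaminB KD, against 35.6% in both mock libraries, and fell short of the call by less than 2 points. IntS4, a scaffold of the cleavage module, was at 0% and 4.23% in AGO2 KD, 19.2% and 19.9% in LaminB KD, against 16.3% and 25.1% in mock. IntS9, the inactive partner of IntS11, had a region only in LaminB KD 1, at 10.6%, and mock 2, at 23.6%. IntS14 was at 0% in both AGO2 KD libraries, 7.77% and 8.02% in LaminB KD, against 0% and 10.5% in mock.

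**Figure D3:**
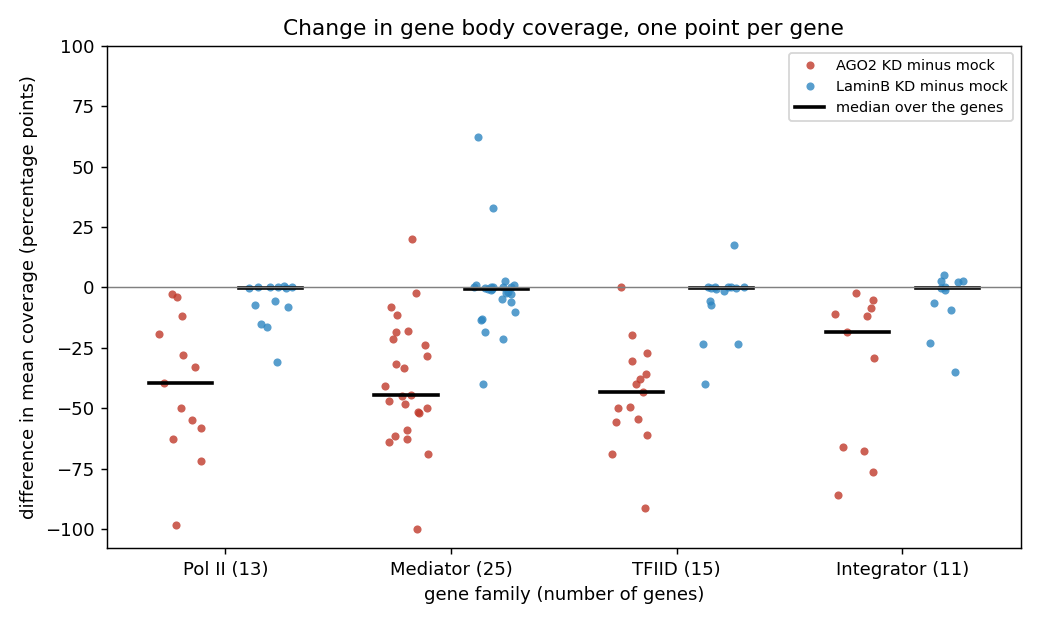
Difference in mean coverage, in percentage points, for each of the 64 genes (points) by complex, with AGO2 KD minus mock in red on the left and LaminB KD minus mock in blue on the right of each pair, and the median over the genes as a black line. The AGO2 KD points lie below 0 apart from MED31 at 19.9 and Taf12L at 0, and the LaminB KD points gather at 0 with MED31 at 62.5.

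Depletion of LaminB left the machinery close to mock. A region touched 63 and 61 bodies in LaminB KD, against 61 and 62 in mock. Over all protein-coding genes the counts were 6986 and 7003, against 7390 and 7324 in mock. Median coverage of the 64 genes was 84.2% and 75.2% in LaminB KD, against 86.1% and 88.6% in mock. The median difference over the 64 genes was −0.54 points, with quartiles of −7.61 and 0. Of the 64 genes, 38 were lower in the mean, 11 higher and 15 equal. Of all protein-coding genes, 5269 were lower, 1248 higher and 7451 equal. None of the 64 genes was called lower (background 1.70% of all genes, and 5.19% of those that could be called) and 1, MED31, was called higher (background 0.100%). LaminB KD lay below mock without overlap in 24 of the 64 (background 20.8%), which is 40% of the 60 with a region in both mock lists against 40.5% of all such genes, and above in 2, IntS1 and MED31 (background 2.03%). No region was lost (background 1.25% of all genes, and 2.44% of those with a region in both mock lists) or gained (background 0.0859%). No count by p can be set beside these counts of 0, since 2 against 2 libraries cannot reach the threshold.

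The largest LaminB KD differences below mock, at Taf8, MED17 and IntS10, were of genes where AGO2 KD was lower still. IntS10 differed by −35.1 points with a pooled SD of 12.8, and Polr2D by −30.9 points with a pooled SD of 30.9. MED30, with 32.8 points and a pooled SD of 36.2, lay higher in LaminB KD on account of mock 2, while mock 1 was at 100%.

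Between the knockdowns, mean coverage was lower in AGO2 KD than in LaminB KD in 63 of the 64 genes, and Taf12L was equal at 0. Of all protein-coding genes, 6808 were lower in AGO2 KD, 192 higher and 6968 equal. The median difference over the 64 genes was −33.5 points. Among genes with a region in both LaminB KD lists it was −37.7 points for 61 of the 64. For 6787 such genes of the whole annotation it was −17.4 points. Starting coverage was not matched here either. The call of lower coverage was made for 13 genes (background 8.60%), 26% of the 50 that could be called against 30.2% of all such genes, and none was called higher (background 0%). AGO2 KD lay below LaminB KD without overlap in 44 of the 64 (background 34.4%), which is 72.1% of the 61 with a region in both LaminB KD lists against 70.9% of all such genes, and above it in 0 (background 0.0716%). Regions present in both LaminB KD libraries and in neither AGO2 KD library were found in 4 genes (background 4.10%), IntS14, MED16, MED18 and MED30. These were 6.56% of the 61 that could be lost, against 8.44% of all such genes, and 0 were gained (background 0.00716%). This comparison and the one with mock share the AGO2 KD libraries.

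Where along the gene the regions lay was compared next, because serine 2 phosphorylation accompanies Pol II into the gene body. Only the annotated start of the gene was used. Some genes have further transcript starts, such as MED6 with 5 in all and Taf4 with 3. In the 30 genes of 2 kb or more, the first of 20 equal bins was covered at 38.7% and 76.0% on average in AGO2 KD, 89.9% and 81.6% in LaminB KD, against 88.7% and 89.3% in mock. The 10th bin stood at 3.33% and 6.67% in AGO2 KD, 33.2% and 32.9% in LaminB KD, against 38.5% and 39.2% in mock. The last bin was at 10.0% and 30.0% in AGO2 KD, 46.7% and 43.3% in LaminB KD, against 53.3% and 46.7% in mock. Coverage was thus highest at the start, lowest in the middle and higher again at the end in every library, and AGO2 KD was below the other groups along the whole gene.

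**Figure D4:**
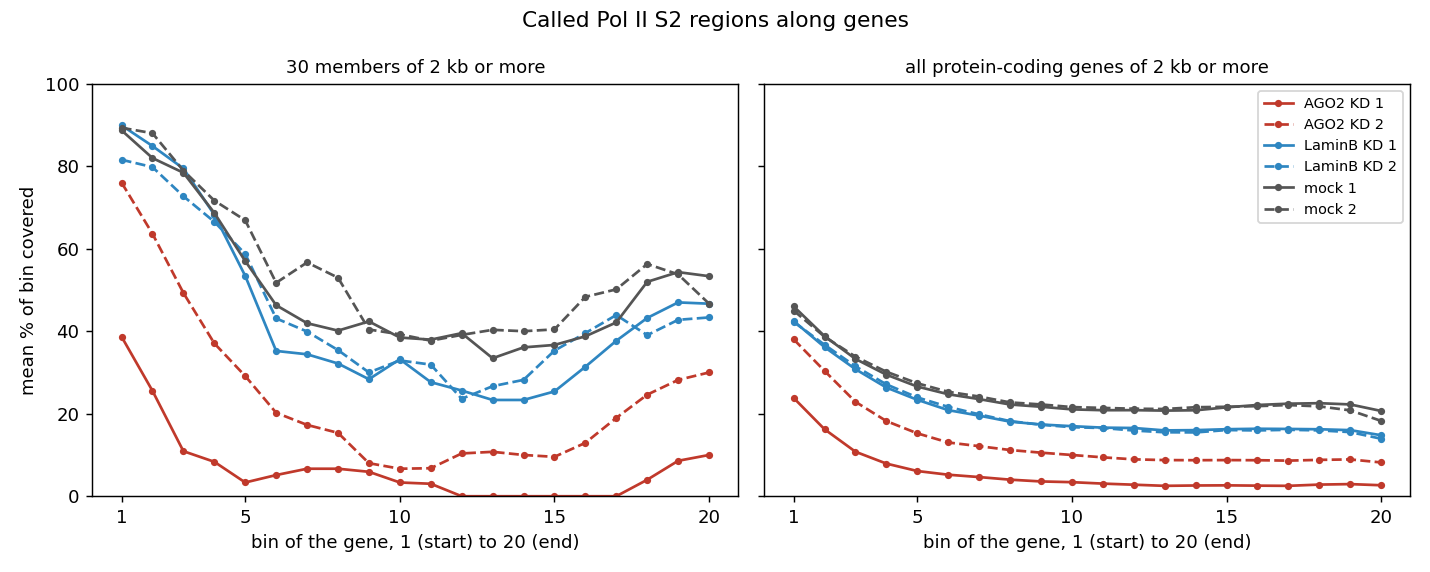
Mean percentage of each of 20 equal bins covered by called Pol II S2 regions, from gene start (bin 1) to gene end (bin 20), for the 30 genes of 2 kb or more of the 4 complexes (left) and all protein-coding genes of that length (right), 1 line per library. On the left AGO2 KD 1 starts at 38.7% and AGO2 KD 2 at 76.0%, against 88.7% and 89.3% in mock, and at bin 10 they stand at 3.33% and 6.67%.

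Regions over the gene start were fewer and reached less far in AGO2 KD than in mock. In AGO2 KD the first 500 bp were covered in 15 and 25 of the 30 longer genes. The counts were 28 and 25 in LaminB KD and 28 and 27 in mock. A gene without such a region counted as a reach of 0. The median reach into the gene was 57 and 396.5 bp in AGO2 KD. It was 925 and 848.5 bp in LaminB KD, against 1060 and 1337.5 bp in mock. The 57 bp of AGO2 KD 1 lies midway between genes without such a region and genes with one. Both AGO2 KD libraries reached less far than both mock libraries in 26 of the 30 genes (background 41.9% of all genes of this length) and in none further (background 0.134%). These were all 26 with a region at the start in both mock lists, where alone a reach can be shorter, against 76.9% of all such genes. LaminB KD reached less far than mock in 9 of the 30 (background 17.5%) and further in 1 (background 3.91%), and AGO2 KD less far than LaminB KD in 24 (background 35.4%). Of the genes where a reach can be shorter, these were 34.6% for LaminB KD against mock (32.1% of all such genes) and 96% for AGO2 KD against LaminB KD (68.9% of all such genes).

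Covered gene ends were rarer as well. For every 100 genes of 1 kb or more with a covered first 500 bp there were 21.1 and 54.3 with a covered last 500 bp in AGO2 KD, 64.3 and 69.2 in LaminB KD, against 68.3 and 80.0 in mock. The means were 37.7 ± 23.5 in AGO2 KD, 66.8 ± 3.50 in LaminB KD, against 74.1 ± 8.28 in mock (SD, n = 2 each). AGO2 KD differed from mock by −36.5 with a pooled SD of 17.6 (two-sided p = 0.333 by an exact permutation test), and LaminB KD from mock by −7.39 with a pooled SD of 6.35 (exact permutation test, two-sided p = 0.667). The first difference was −19.9 without AGO2 KD 1 and −53.1 without AGO2 KD 2, and the second was −13.2 without mock 1 and −1.53 without mock 2. Over all protein-coding genes the ratio was 20.9 and 37.9 in AGO2 KD, 52.7 and 52.5 in LaminB KD, against 60.3 and 59.4 in mock. The machinery had the same order of groups, at a like level in AGO2 KD 1 and a higher one in every other library.

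Many of the covered ends belonged to neighbours. Of the 30 longer genes, the last 500 bp were covered in 3 and 10 in AGO2 KD, 16 and 16 in LaminB KD, against 17 and 20 in mock. The region at the end was the same as the one at the start in 0 and 0 of these in AGO2 KD, 5 and 4 in LaminB KD, against 7 and 7 in mock. A separate region that also touched the start of another gene accounted for 3 and 8 in AGO2 KD, 10 and 8 in LaminB KD, against 8 and 9 in mock. The covered ends in AGO2 KD thus lay mostly where another gene began.

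Sharing with neighbours held for the regions in general. Of the distinct regions that touched the 64 genes, 60.6% and 69.6% touched at least 2 protein-coding genes in AGO2 KD, 76.3% and 66.2% in LaminB KD, against 77.6% and 71.2% in mock. Their median width was 749 and 1350 bp in AGO2 KD, 2173.5 and 2192 bp in LaminB KD, against 2734.5 and 2854.5 bp in mock. The strongest region of each gene sat at a median percentile of 48.8 and 52.3 by fold within its own list in AGO2 KD, 58.0 and 57.2 in LaminB KD, against 64.4 and 64.2 in mock, so these genes carried regions of middling strength. In the 32 genes that overlap no other annotated gene, the median difference between AGO2 KD and mock was −38.0 points, close to that of all 64.

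The promoter windows followed the same order as the bodies. A region touched 22 and 48 of the 64 windows in AGO2 KD, 56 and 52 in LaminB KD, against 57 and 56 in mock. The window of Taf10 was at 0% and 100% in AGO2 KD and at 100% elsewhere. That of MED30 was at 0% in both AGO2 KD libraries, 100% and 0% in LaminB KD, against 100% and 1.67% in mock. The window of Polr2C, which like that of MED18 holds a DRE core, was fully covered in all 6 libraries.

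Other genes of the same pathways, from a list of 31 under other symbols, gave values of the same order. A region was found on 16 and 25 of them in AGO2 KD, 27 and 27 in LaminB KD, against 28 and 28 in mock. Of the 31, 9 were called lower upon AGO2 depletion (background 14.4%), none higher, and 3 lost their region (background 6.39%), asun, kto and Trf. These were 40.9% of the 22 that could be called and 10.7% of the 28 that could be lost, against 44.0% and 12.4% of all such genes. The median difference was −35.0 points. Upon LaminB depletion none was called lower or higher, and asun lost its region.

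Among 18 general transcription factors, which assemble with TFIID and Pol II at the promoter, 6 were called lower in AGO2 KD (background 14.4%). These were Tbp, TfIIFbeta, Tfb1, Ssl1, Cdk7 and CycH. They made up 37.5% of the 16 that could be called, against 44.0% of all such genes. Tbp, the TATA-binding protein, was at 0% and 19.0% in AGO2 KD, 100% and 91.8% in LaminB KD, against 100% in both mock libraries. Cdk7, the kinase of TFIIH, was at 15.6% and 25.9% in AGO2 KD, 85.6% and 82.9% in LaminB KD, against 79.7% and 100% in mock. TfIIA-S, TfIIEalpha and Tfb5 were covered over their whole length in all 6 libraries.

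The Mediator kinase module followed the same order. Cdk8, its kinase, was at 19.4% and 32.2% in AGO2 KD, 84.7% and 96.2% in LaminB KD, against 100% and 95.2% in mock. The long gene kto, which encodes Med12, was at 0% in both AGO2 KD libraries, 6.03% and 16.1% in LaminB KD, against 13.8% and 25.0% in mock. Trf, a relative of Tbp that starts head to head with MED20, was at 0% in both AGO2 KD libraries, 73.1% and 71.7% in LaminB KD, against 72.2% and 71.4% in mock.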

How the data were processed

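Pol II S2 ChIP-seq had 6 IP and 6 input samples, and the inputs entered only through the authors' peak calling. Per the methods and the submitters' processing notes, the authors trimmed reads with cutadapt, aligned them to dm6 with Bowtie2, removed duplicates with Picard and called broad regions against input with MACS2 2.1.1.20160309, for each replicate separately. The deposited lists give positions, a score, a fold enrichment (a ratio to the background), and −log10 p and −log10 q. Positions were converted to count from 1. Coverage was computed from merged regions over the 13968 protein-coding genes of Ensembl release 115 with Python 3.11.15, numpy 2.4.6, pandas 2.3.3 and scipy 1.17.1, and was tested on simulated regions. Fold and −log10 p were used only within a list or for regions of like fold. The study's read-based test needs counts and was not run, so presence and extent were compared. The genes and lists were chosen with earlier results of these data known. Named were all Polr2 genes, the 3 largest and 2 smallest falls per other complex and comparison with mock, genes lost, gained or without any region, and the 3 widest AGO2 KD replicate gaps. The other members were added for completeness, and any other gene was chosen after its values were seen. The marker rye could not be matched to 1 gene. Alternatives were a stricter score, equal list sizes, a smaller margin, genes without overlap, each replicate left out and a replicate block.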

Additional observations from a re-analysis of the deposited data

Results flagged for a closer look

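Coverage of IntS1 in mock lay between that of AGO2 KD, which was lower in each library, and that of LaminB KD, which was higher in each, with differences from mock of −8.60 percentage points in AGO2 KD and 5.01 points in LaminB KD. The body of the AGO2 gene itself did the same, with −33.1 points in AGO2 KD and 14.3 points in LaminB KD. The difference between the knockdowns in these contrasts was not tested.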

How the results depend on the processing

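The AGO2 KD minus mock median of −40.4 points kept its direction in every alternative. With replicates left out in turn it was −58.2 (no AGO2 KD 2) at one extreme and −17.4 (no AGO2 KD 1) at the other. The count of genes called lower was 35 with a margin of 10 points, 9 in genes without overlap and 21 to 45 with a replicate left out, 45 being without AGO2 KD 2 (26.2% of all genes). With the top-scoring 50% of each list it was again 21, of which 11 were the same genes. Regions were lost in 15 genes with the top-scoring 50% of each list, 7 with every list trimmed to 4122 regions (equal numbers), 8 when presence needed 10% of the body, and 3 to 28 with a replicate left out, 28 being without AGO2 KD 2 and 5 without mock 1. For LaminB KD minus mock, the count called lower was 4 with the top-scoring 50%, 2 with equal numbers, 6 with the smaller margin and 1 to 3 with a replicate left out (IntS8 without mock 2). The count lost was 3, 1 and 1 under the top-scoring 50%, equal numbers and the 10% rule, and 0 with any replicate left out. The LaminB KD minus mock difference in covered ends was −0.49 with equal numbers and −13.2 to −1.53 with a replicate left out, and that of AGO2 KD minus mock −53.1 to −19.9 with a replicate left out. For AGO2 KD minus LaminB KD, the median was −48.8 without AGO2 KD 2 and −13.8 without AGO2 KD 1, the extremes, and the count called lower was 30 with the smaller margin, 5 without overlaps and 13 to 44 with a replicate left out, 44 being without AGO2 KD 2. With equal numbers Polr2B and Polr2D turned to 8.00 and 21.9 points higher in AGO2 KD than in mock. The trim removed regions from every list but that of AGO2 KD 1. Both values thus come from mock regions that were cut, not from a gain in AGO2 KD. What part depth had in this was not tested. The whole annotation of 13968 genes gives the background for the trimmed lists. For AGO2 KD minus mock, 2007 of these genes were called lower with full lists. With the top-scoring 50% the number was 1586, and with equal numbers it was 1415. Among the 64 genes the counts were 21, 21 and 18 in the same order. For LaminB KD minus mock, the whole-annotation counts were 237, 292 and 210, against 0, 4 and 2 among the 64. Leaving out AGO2 KD 2 also raised the whole-annotation counts. Regions lost against mock were then found in 2764 genes, against 892 with all libraries, and in 1034 without mock 1. Genes called lower than in LaminB KD were then 2960 (21.2%), against 1201 (8.60%) with all libraries. The counts with the smaller margin, and of lost regions with trimmed lists or the 10% rule, are given without this background.

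Same-numbered libraries did not deviate together (correlation over the 64 genes 0.02, −0.15 and −0.05 for AGO2 KD with mock, LaminB KD with mock and AGO2 KD with LaminB KD). A replicate block moved the count called lower in LaminB KD to 1, MED17, and the crossed pairing, added after seeing the data, gave 0. The block changed no other result by over 1.5 times. Unknown depth limits all of these counts, since at like fold the AGO2 KD lists reached the lowest −log10 p, and lost or shortened regions cannot be told apart from regions that missed the threshold.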
